A study of Mus musculus with 6 samples.

Results

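This account covers 10 genes of matrix mineralization and phosphate handling, *Alpl*, *Phospho1*, *Smpd3*, *Enpp1*, *Ank*, *Panx3*, *Slc20a1*, *Slc20a2*, *Phex* and *Mgp*, out of the 47729 genes in the deposited RNAseq table. They were chosen by name for their function, with earlier results of these data known. They were matched to the table through their Ensembl identifiers, and all 10 were found and had enough reads to be tested. The table holds 3 Control and 3 LS1 libraries, each from 1 mouse of generation F13 at 14 days of age. LS1 is a Longshanks line that was bred for long tibiae relative to body mass. Control mice came from the random-bred ICR (CD-1) line kept in parallel. The mice of a group came from different families, and the labels name no transgene, deletion or treatment. Both proximal tibial epiphyses of a mouse were pooled, so each library holds polyadenylated RNA of growth plate, metaphysis, articular cartilage, secondary ossification center and marrow together. LS1 is a single selected line, so an effect of selection and a chance difference of that line cannot be told apart.

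Mineral in the growth plate and in bone is hydroxyapatite, a salt of calcium and inorganic phosphate that first forms in matrix vesicles shed by hypertrophic chondrocytes and osteoblasts. Whether it forms depends on the balance between phosphate and pyrophosphate, the latter being a strong inhibitor of crystal growth. *Alpl* encodes tissue-nonspecific alkaline phosphatase, which hydrolyzes pyrophosphate to phosphate, *Enpp1* encodes the ectoenzyme that makes pyrophosphate from extracellular ATP, and *Ank* encodes a membrane protein needed for pyrophosphate to reach the outside of the cell. *Phospho1* encodes a phosphatase that frees phosphate from phosphocholine within matrix vesicles, and *Smpd3* encodes a neutral sphingomyelinase that releases phosphocholine from sphingomyelin. *Slc20a1* and *Slc20a2* encode sodium-dependent phosphate transporters, *Phex* encodes an endopeptidase of osteoblasts and osteocytes whose loss causes phosphate wasting, *Panx3* encodes a channel that releases ATP from prehypertrophic chondrocytes and osteoblasts, and *Mgp* encodes a vitamin K-dependent inhibitor of calcification.

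The recovered depth was 68803249 to 76581954 reads in Control and 82227711 to 88745366 reads in LS1. Levels are given as the deposited normalized counts, which are reads divided by 1 size factor per library, and groups as mean ± SD over 3 mice. The tissue was checked against marker genes, and the chondrocyte genes *Col2a1* and *Col10a1*, the osteoblast gene *Col1a1* and the osteocyte genes *Dmp1*, *Mepe* and *Sost* were present in every library, *Sost* being the lowest with at least 3014 normalized counts. LS1 replicate 3 stood apart from the other LS1 libraries on principal component 1 of all tested genes (35.1% of the variance), at -4.29 against 43.7 and 50.1, with Control between -41.5 and -22.1. The labels give no sex. Y-linked genes summed to between 19313 and 30556 normalized counts in Control replicate 3 and LS1 replicates 1 and 3. In the 3 others they summed to between 90.5 and 149. *Xist* went the other way, with 99.8 to 221 normalized counts in the former libraries and 70194 to 71731 in the 3 others. Read as sex, these values give 2 female and 1 male mouse in Control and 1 female and 2 male in LS1. The libraries with and without Y-linked reads were thus unevenly spread over the groups.

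The promoters of the phosphate importer *Slc20a1*, which had the lowest ratio of LS1 to Control among the 10 genes, and of the phosphatases *Alpl* and *Phospho1* are shown for the sequence context of the transcripts measured here. They are RefSeq sequences on GRCm38.p6, read 5′ to 3′ on the strand of the gene, from 250 bases before to 50 bases after the start site. RefSeq windows were matched for 6 of the 10 genes, 8 windows in all, and the first window of each of the 3 genes is given. Capitals mark 3 motifs searched on both strands, the RUNX core TGTGGT, the GC box GGGCGG and the TATA box TATAAA, with overlapping matches counted separately and a GC box of the other strand reading CCGCCC.
Slc20a1 (chr2:129198523-129198822, plus strand): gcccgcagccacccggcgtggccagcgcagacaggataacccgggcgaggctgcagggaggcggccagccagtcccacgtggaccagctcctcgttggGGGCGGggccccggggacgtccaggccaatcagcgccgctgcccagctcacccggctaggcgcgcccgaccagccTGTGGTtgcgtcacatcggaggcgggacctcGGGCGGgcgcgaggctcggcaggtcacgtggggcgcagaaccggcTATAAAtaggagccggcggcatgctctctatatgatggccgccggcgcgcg
Alpl (chr4:137796335-137796634, minus strand): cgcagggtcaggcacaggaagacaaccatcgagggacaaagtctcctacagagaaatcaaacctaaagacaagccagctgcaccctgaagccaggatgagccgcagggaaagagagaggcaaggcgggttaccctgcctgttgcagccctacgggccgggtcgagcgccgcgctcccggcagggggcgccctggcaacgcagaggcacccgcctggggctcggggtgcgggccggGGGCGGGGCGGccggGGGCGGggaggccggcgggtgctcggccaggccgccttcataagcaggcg
Phospho1 (chr11:95824250-95824549, plus strand): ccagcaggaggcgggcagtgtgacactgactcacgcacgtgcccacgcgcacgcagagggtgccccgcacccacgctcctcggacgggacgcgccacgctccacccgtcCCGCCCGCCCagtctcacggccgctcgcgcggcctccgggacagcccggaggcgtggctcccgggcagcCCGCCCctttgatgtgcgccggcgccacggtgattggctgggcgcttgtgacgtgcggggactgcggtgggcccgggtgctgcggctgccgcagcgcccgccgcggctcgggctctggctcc
The *Slc20a1* window held TGTGGT starting 77 bases before the start site, GGGCGG starting 152 and 46 bases before it, and TATAAA 1 base before it. The *Alpl* and *Phospho1* windows held the GC box 3 times each, in *Phospho1* on the other strand, and neither other motif. Among the 32851 promoter windows of the same length, 16.8% held TGTGGT, 35.7% held GGGCGG and 13.6% held TATAAA on either strand. These matches describe the letters of the windows only.

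Levels of different genes were compared as RPKM, reads scaled to the length of the exons and to library depth, since the exons of these genes span 1187 bases in *Mgp* to 10257 bases in *Enpp1*. *Mgp* had the highest level, 299 ± 27.7 RPKM in Control and 278 ± 8.77 RPKM in LS1, and ranked 88th of the 19308 genes tested. Below it came *Smpd3* with 97.4 ± 2.46 RPKM in Control, *Panx3* with 81.6 ± 6.30, *Alpl* with 73.5 ± 15.3, *Ank* with 64.7 ± 8.87 and *Phex* with 50.5 ± 9.32. The lower tier held *Slc20a1* with 25.3 ± 4.91 RPKM in Control, *Enpp1* with 17.1 ± 1.97, *Slc20a2* with 13.5 ± 1.05 and *Phospho1* with 12.9 ± 2.55. Over all 6 libraries the range of *Mgp* did not meet that of *Smpd3*, and the range of *Phex* (40.5 to 74.3 RPKM) did not meet that of *Slc20a1* (16.9 to 29.5 RPKM), whereas the ranges of all other neighbours in this order overlapped. Transcripts of the phosphatase of pyrophosphate were more abundant than those of the enzyme that makes it, with a log2 ratio of *Alpl* to *Enpp1* of 2.09 ± 0.45 in Control.

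The comparison of LS1 with Control asks which transcripts differ in the growth region of the long-tibia line. *Panx3* lay higher in LS1 at 1.39 times the Control level, *Slc20a1* lay lower at 0.733 times, and the 8 other genes had ratios between 0.891 and 1.22. None of these differences passed the test across all genes. In limma 0 of the 10 genes passed an adjusted p of 0.05, as 0.0725% of all genes tested did, and with edgeR 0 of 10 against 0.0363%. DESeq2 called 0 of 10 higher, against 1.31% of the genes it tested, and 0 of 10 lower, against 0.801%. At an unadjusted p under 0.05 from limma there was 1 gene higher in LS1, *Panx3*, against 7.08% of all genes, and 1 gene lower, *Slc20a1*, against 5.86%. The LS1 libraries were all above the Control libraries in 2 genes, *Panx3* and *Smpd3*, against 10.3% of all genes, and below them in 1, *Slc20a1*, against 8.94%. A log2 fold change above 0 was found in 6 of 10 genes, against 50.7% of all genes, and the median over the 10 genes was 0.11, against 0.0054 over all genes.

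**Figure D1:**
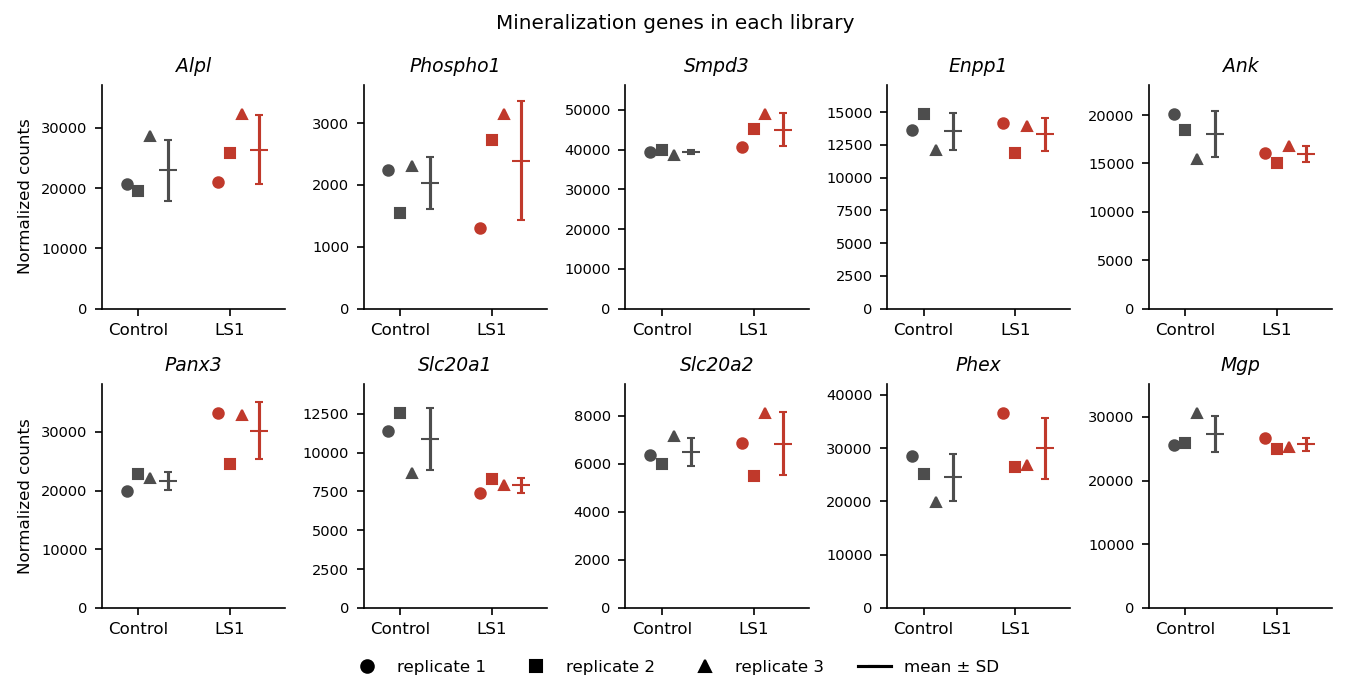
Normalized counts (vertical axis, starting at 0) of the 10 mineralization genes in each Control and LS1 library, with symbols for replicates 1 to 3 and the mean ± SD of each group at the right of its points. The LS1 points of *Panx3* and *Smpd3* lie above all Control points, those of *Slc20a1* lie below them, and the groups overlap in the 7 other genes.

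*Alpl* (ENSMUSG00000028766, chromosome 4 of GRCm38, 137741733 to 137796384) had 20603, 19443 and 28678 normalized counts in the Control libraries and 21030, 25751 and 32310 in LS1. The groups overlapped, and replicate 3 was the highest library of both groups. LS1 exceeded Control by 0.20 on the log2 scale, with a standard error (SE) of 0.19, a limma adjusted p of 0.682 and a 95% interval of the ratio from 0.862 to 1.54. Without LS1 replicate 3 the log2 fold change was 0.045 and without Control replicate 2 it was 0.095, while it was 0.35 without LS1 replicate 1 and 0.38 without Control replicate 3.

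*Phospho1* (ENSMUSG00000050860, chromosome 11, 95824499 to 95832140) had 2235, 1549 and 2307 normalized counts in Control and 1304, 2726 and 3152 in LS1. The LS1 libraries held both the lowest and the highest value of the gene, and their coefficient of variation of 40.4% was the largest of the 10 genes in either group. Its log2 fold change of 0.16 had a standard error of 0.32, and the 95% interval of the ratio reached from 0.678 to 1.85 (limma adjusted p 0.866). The sign of this value rested on single libraries, since it was -0.021 without Control replicate 2 and -0.084 without LS1 replicate 3, and 0.55 without LS1 replicate 1 (limma adjusted p 0.282). *Phospho1* overlaps *Abi3* on the opposite strand and *Zfp652* on its own. Whether strand was used in counting is not given in the sources used here, so reads of overlapping genes, here and for the genes named below, may not be told apart.

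*Smpd3* (ENSMUSG00000031906, chromosome 8, 106252548 to 106337988) was the steadiest of the 10 genes in Control, with 39386, 39825 and 38761 normalized counts and a coefficient of variation of 1.36%. The LS1 libraries had 40750, 45281 and 49035. LS1 lay above Control throughout, though LS1 replicate 1 by only a small margin. The difference was 0.19 on the log2 scale (SE 0.13, limma adjusted p 0.549), with a 95% interval from -0.09 to 0.47, or 0.13 without LS1 replicate 3. *Smpd3* overlaps *Gm26786* on its own strand and *Gm10629* and *Prmt7* on the opposite strand.

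Within a library, the log2 ratio of *Phospho1* to *Alpl* per length was -2.50 ± 0.25 in Control and -2.54 ± 0.42 in LS1 (two-sided exact permutation p = 0.9). Such a ratio does not depend on the size factor of the library. Of the 5 ratios computed here none passed, with adjusted p-values of 0.5 to 0.9, and 3 mice against 3 cannot give a two-sided p below 0.1.

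*Enpp1* (ENSMUSG00000037370, chromosome 10, 24637914 to 24712159) had 13663, 14884 and 12089 normalized counts in Control and 14140, 11888 and 13912 in LS1. The groups covered nearly the same range. Its log2 fold change of -0.024 was the smallest in size among the 10 genes (SE 0.13, limma adjusted p 0.960), and the 95% interval of the ratio ran from 0.801 to 1.21. It ran from -0.10, without Control replicate 3, to 0.055, without LS1 replicate 2, when 1 library was left out. The log2 ratio of *Alpl* to *Enpp1* was 1.94, 1.73 and 2.59 in Control and 1.92, 2.46 and 2.56 in LS1, a difference of 0.23 (two-sided exact permutation p = 0.7). The highest of these ratios was in a Control library, so the groups overlapped. Leaving out 1 library gave a difference from 0.048, without Control replicate 2, to 0.48, without Control replicate 3, and it was 0.42 without LS1 replicate 1 and 0.10 without LS1 replicate 3.

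*Ank* (ENSMUSG00000022265, chromosome 15, 27466677 to 27594909) had 20140, 18452 and 15480 normalized counts in Control and 16107, 15065 and 16774 in LS1. Control replicates 1 and 2 were above every LS1 library and Control replicate 3 was among them. LS1 minus Control came to -0.17 on the log2 scale (SE 0.14, limma adjusted p 0.634), with a 95% interval of the ratio from 0.724 to 1.10, to -0.082 without Control replicate 1 and to -0.27 without Control replicate 3. *Ank* overlaps *B230362B09Rik*, *Mir7117* and *Tiaf2* on its own strand and *Otulin* on the opposite strand.

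*Panx3* (ENSMUSG00000011118, chromosome 9, 37659902 to 37669235) had 19851, 22855 and 22194 normalized counts in Control and 33224, 24556 and 32909 in LS1. No LS1 library was as low as any Control library, and LS1 replicate 2 was the closest to them. The means were 21633 ± 1579 in Control and 30230 ± 4916 in LS1 (SD, 3 mice each). The difference of 0.47 on the log2 scale (SE 0.15) had the smallest p of the 10 genes, 0.00890 from limma before adjustment and 0.261 after it, with 0.131 from DESeq2 and 0.261 from edgeR. Leaving out 1 library at a time gave 0.40 to 0.61 on the log2 scale. Among the 3 libraries with Y-linked reads the difference was 0.58, for 2 LS1 against 1 Control. Among the 3 others it was 0.21, for 1 LS1 against 2 Control. The shared sign was fixed in advance, since every LS1 library lay above every Control library. No annotated gene overlaps *Panx3*.

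*Panx3* is a gene of prehypertrophic and hypertrophic chondrocytes and of osteoblasts, so the markers of these cells are given beside it. *Col10a1*, the collagen of hypertrophic cartilage, had 343250 ± 28618 normalized counts in Control and 523670 ± 16655 in LS1 (SD, 3 mice each), with all LS1 libraries above Control and an adjusted p of 0.158 from limma, 0.181 from edgeR and 0.00685 from DESeq2. DESeq2 called 5 of 10 chondrocyte, 2 of 5 hypertrophic and 0 of 9 osteoblast and osteocyte markers, and limma 0 of each. Of all genes tested, DESeq2 called 1.31% higher and 0.801% lower, limma called 0.0725%, and 50.7% had a log2 fold change above 0. Of 10 chondrocyte markers all 10 had a log2 fold change above 0, with a median of 0.53, and their summed normalized counts were 2256700 to 2560200 in Control and 2913500 to 3399500 in LS1. Of 5 hypertrophic markers 4 were above 0, with a median of 0.40 and sums of 712350 to 1061400 in Control and 909270 to 1020900 in LS1. *Mmp13* went the other way at -0.37 on the log2 scale (limma adjusted p 0.494), with overlapping groups. Its mean was 522350 ± 165500 for Control mice, against 394390 ± 55598 for LS1 mice (normalized counts, SD of 3 mice). Of 9 osteoblast and osteocyte markers 4 were above 0, with a median of -0.043 and sums of 5382700 to 6375100 in Control and 4492000 to 5495500 in LS1. Per length, the log2 ratio of *Panx3* to *Col10a1* was -4.13, -4.16 and -4.08 in Control and -4.14, -4.49 and -4.15 in LS1. Relative to *Col10a1* the groups thus overlapped, with a difference of -0.14 (two-sided exact permutation p = 0.3), which was -0.024 without LS1 replicate 2. In RNA of a whole epiphysis, a difference in the number of cells of a type and in RNA per cell cannot be told apart. The part of the chondrocyte and osteoblast markers in the values of *Panx3* was not tested.

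**Figure D2:**
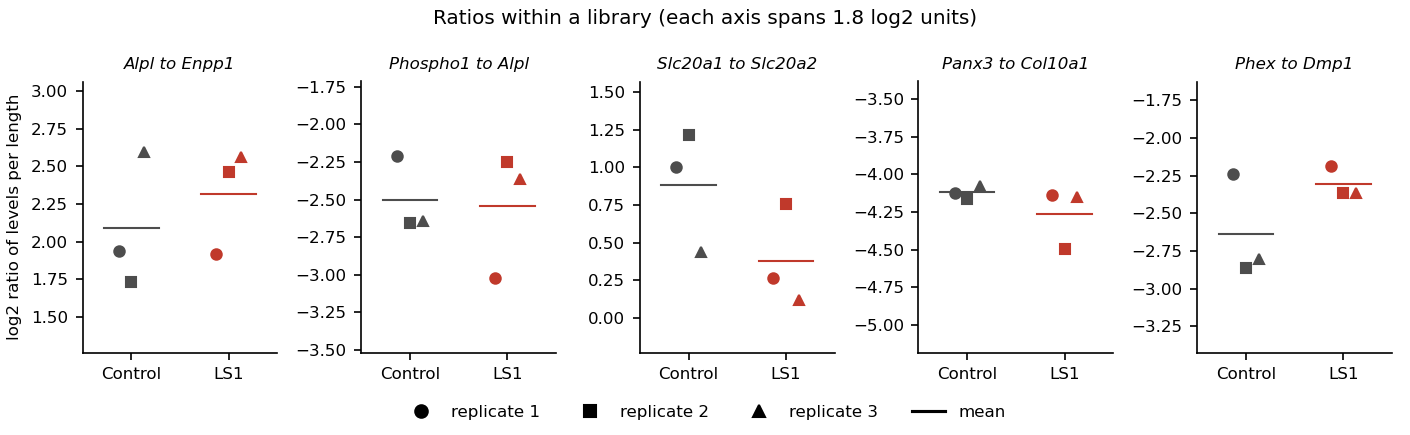
Log2 ratios of the levels per length of 5 gene pairs in each library (vertical axes, each spanning 1.8 log2 units), with symbols for replicates 1 to 3 and a line at each group mean. The Control and LS1 libraries overlap in all 5 ratios, and the largest difference is that of *Slc20a1* to *Slc20a2*, -0.50.

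*Slc20a1* (ENSMUSG00000027397, chromosome 2, 129198764 to 129211616) had 11413, 12547 and 8659 normalized counts in Control and 7398, 8330 and 7923 in LS1. No LS1 library was as high as any Control library, with Control replicate 3 close to LS1 replicate 2. The means were 10873 ± 1999 in Control and 7884 ± 467 in LS1 (SD, 3 mice each), or -0.45 on the log2 scale (SE 0.15, limma adjusted p 0.284, 0.172 from DESeq2 and 0.263 from edgeR). The unadjusted p from limma was 0.0134, and it was 0.0510 without Control replicate 1 and 0.0795 without Control replicate 2. Its log2 fold change stayed between -0.60 and -0.34 when 1 library was left out, and was -0.36 with Y-linked expression as a covariate. The difference was -0.18 among the libraries with Y-linked reads and -0.52 among the others. The genes *9830144P21Rik* and *Gm4430* lie on the opposite strand of *Slc20a1*.

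*Slc20a2* (ENSMUSG00000037656, chromosome 8, 22476788 to 22569612), which encodes the other transporter of the family, had 6347, 6009 and 7136 normalized counts in Control and 6869, 5490 and 8111 in LS1. The LS1 libraries lay on both sides of Control, and differed from it by 0.056 on the log2 scale (SE 0.16, limma adjusted p 0.909), with a 95% interval of the ratio from 0.818 to 1.32. Its sign rested on LS1 replicate 3, without which it was -0.078, and it was 0.20 without LS1 replicate 2. The log2 ratio of *Slc20a1* to *Slc20a2* per length was 1.00, 1.22 and 0.43 in Control and 0.26, 0.76 and 0.12 in LS1. Its mean was 0.88 ± 0.40 in Control and 0.38 ± 0.33 in LS1, with LS1 replicate 2 above Control replicate 3 (two-sided exact permutation p = 0.2). The difference of -0.50 ranged from -0.73 to -0.34 when 1 library was left out. *Slc20a1* thus had the higher level of the pair in all 6 libraries. *Slc20a2* overlaps *Gm17491* on its own strand and *Smim19* on the opposite strand.

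Phosphate transporters are expressed by marrow cells as well as by cartilage and bone, and marrow markers are given beside *Slc20a1*. All 6 erythroid markers had a log2 fold change under 0, with a median of -0.51, and their summed normalized counts were 136260 to 193400 in Control and 98919 to 145260 in LS1. Of 6 B cell markers 5 were under 0, with a median of -0.57 and sums of 37259 to 40333 in Control and 23515 to 36858 in LS1. Other marrow lists lay the other way. Of 7 neutrophil markers 6 were above 0, with a median of 0.31 and sums of 240990 to 338880 in Control against 310110 to 359710 in LS1, and of 6 macrophage markers all 6 were above 0, with a median of 0.23 and sums of 27800 to 38932 in Control against 36024 to 39750 in LS1. The part of these marrow markers in the values of *Slc20a1* was not tested.

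*Phex* (ENSMUSG00000057457, chromosome X, 157162075 to 157415312) had 28609, 25072 and 19878 normalized counts in Control and 36601, 26542 and 26777 in LS1. LS1 replicate 1 was the highest and Control replicate 3 the lowest library, and the others overlapped. LS1 was higher by 0.29 on the log2 scale (SE 0.17, limma adjusted p 0.509), with a 95% interval of the ratio from 0.937 to 1.59, and by 0.14 without LS1 replicate 1 and by 0.15 without Control replicate 3. Both of these libraries had Y-linked reads. Among the 3 libraries with such reads LS1 exceeded Control by 0.66 on the log2 scale, and among the 3 without them the difference was -0.013. The log2 ratio of *Phex* to *Dmp1*, a matrix protein gene of osteocytes, was -2.64 ± 0.35 in Control and -2.30 ± 0.10 in LS1 (two-sided exact permutation p = 0.3). The difference of 0.33 ranged from 0.22 without Control replicate 2 to 0.53 without Control replicate 1. *Phex* overlaps *Gm15172* and *Gm25795* on its own strand and *Gm23798* on the opposite strand.

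*Mgp* (ENSMUSG00000030218, chromosome 6, 136872435 to 136875823) had 25647, 25861 and 30625 normalized counts in Control and 26766, 24922 and 25340 in LS1. The 3 LS1 libraries lay close together, with a coefficient of variation of 3.77%, and Control replicate 3 was the highest of all. LS1 minus Control was -0.088 on the log2 scale (SE 0.13, limma adjusted p 0.809), with a 95% interval of the ratio from 0.774 to 1.14. It was -0.0050 without Control replicate 3 and -0.13 without Control replicate 1. *Mgp* is also expressed by vascular smooth muscle, and for 6 smooth muscle and pericyte markers the median was -0.10 on the log2 scale, with 5 of 6 under 0 and sums of 20339 to 30314 normalized counts in Control and 20568 to 24824 in LS1. None of these 6 markers had an unadjusted limma p under 0.05. The 10 chondrocyte markers lay the other way, all above 0 with a median of 0.53. The part of either list in the values of *Mgp* was not tested.

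**Figure D3:**
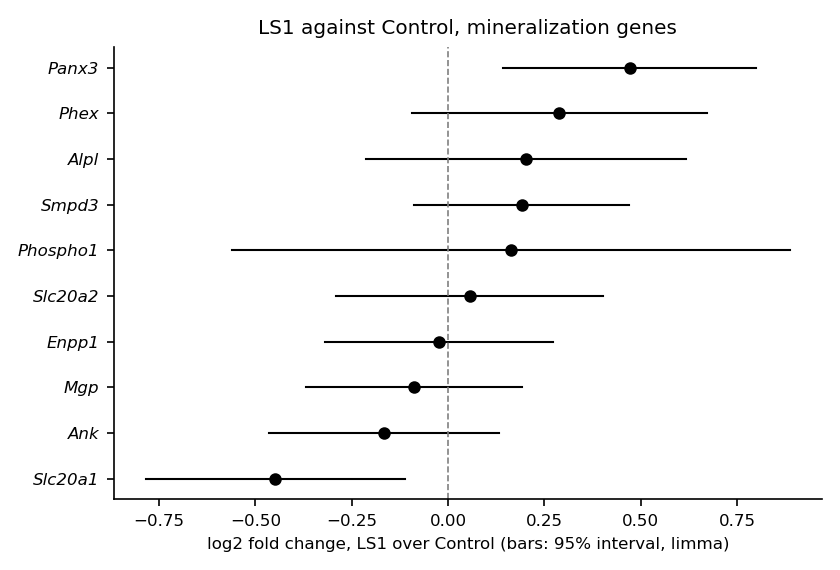
Log2 fold change of LS1 over Control from limma for the 10 genes (points, horizontal axis), with 95% intervals as bars and a dashed line at 0. The intervals of *Panx3* (0.14 to 0.80) and *Slc20a1* (-0.78 to -0.11) do not include 0 before adjustment for the number of genes tested, and that of *Phospho1* is the widest.

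Within the libraries without and with Y-linked reads, which hold 2 Control and 1 LS1 and 1 Control and 2 LS1 libraries, the remaining genes were compared as log2 differences of LS1 minus Control with no test. *Alpl* differed by 0.36 without and by -0.14 with Y-linked reads, *Phospho1* by 0.55 and -0.19, and *Enpp1* by -0.26 and 0.21. *Ank* differed by -0.36 and 0.0865, and *Slc20a2* by -0.17 and 0.065. The signs of these 5 genes and of *Phex* were opposite in the pair of comparisons. *Smpd3* differed by 0.19 and 0.21 and *Mgp* by -0.047 and -0.23, with the same sign in both. In *Smpd3*, *Panx3* and *Slc20a1* the groups did not overlap, so any such split gives the same sign.

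The profiles over the 6 libraries were compared by the root mean square difference of log2 values, each profile being centred on its own mean, among the 10 genes and 48 tested genes of 5 related lists. *Alpl* was closest to *Gas6*, a vitamin K-dependent ligand (0.0898 on the log2 scale, against a median of 0.355 over the 57 genes compared), and *Phospho1* was also closest to *Gas6* (0.255), with *Alpl* next to it among the 10 genes (0.282). *Mgp* was closest to *Sparc*, which encodes osteonectin (0.0476), *Phex* to *Vkorc1*, the vitamin K epoxide reductase (0.0547), and *Panx3* to *Nt5e*, the ectonucleotidase that makes adenosine from AMP (0.0640). *Slc20a1* was closest to *Slc29a1*, an equilibrative nucleoside transporter (0.104), *Smpd3* to *Anxa6*, an annexin (0.101), and *Slc20a2* to *Spp1*, osteopontin (0.150). *Enpp1* was closest to the ATP channel gene *Panx1* (0.0970) and *Ank* to *Enpp1* (0.114). *Panx1* varied little, with a coefficient of variation of 4.02% in Control and 4.03% in LS1. On this measure, genes that vary little lie close to each other whatever their profiles. The medians over the genes compared ran from 0.234 for *Mgp* to 0.501 for *Phospho1*. These distances describe 6 libraries that share their groups and carry no test.

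The related lists were chosen by function and hold 53 genes, of which 48 were tested. None of them, 0 of 48, passed an adjusted p of 0.05 in limma, against 0.0725% of all genes, while DESeq2 called 1 higher, *Enpp2*, against 1.31%, and 0 lower, against 0.801%. At an unadjusted p under 0.05 there were 6 genes higher and 3 lower in LS1, where 7.08% and 5.86% of all genes were. Their median log2 fold change was 0.0012. In 9 genes all LS1 libraries were above Control and in 5 below, against 10.3% and 8.94% of all genes.

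Among 9 genes of pyrophosphate and nucleotide metabolism, 2 were higher and 1 lower in LS1 at an unadjusted p under 0.05, with a median log2 fold change of 0.032. *Enpp2*, the lysophospholipase autotaxin of the same family as *Enpp1*, had 3537 ± 459 normalized counts in Control and 5440 ± 614 in LS1 (SD, 3 mice each). Its log2 fold change of 0.62 had an adjusted p of 0.184 from limma, 0.200 from edgeR and 0.0288 from DESeq2, and all LS1 libraries were above Control. LS1 differed from Control by 0.42 in *Nt5e* and by -0.36 in *Slc29a1* on the log2 scale (limma adjusted p 0.288 and 0.337). The groups did not overlap in either gene. *Ppa1*, the cytosolic inorganic pyrophosphatase, had the highest level per length of this list, 132 RPKM in Control and 134 RPKM in LS1.

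Of 13 genes of phosphate transport and its hormonal control 9 were tested, with a median log2 fold change of -0.18. *Xpr1*, the phosphate exporter, had a log2 fold change of 0.32 (limma adjusted p 0.351), and *Vdr*, the vitamin D receptor, one of -0.34 (limma adjusted p 0.323). In *Xpr1* all LS1 libraries were above Control and in *Vdr* all were below. *Pth1r*, the receptor of PTH and PTHrP, had 27075 ± 3676 normalized counts in Control and 25722 ± 4635 in LS1 (SD, 3 mice each). *Slc34a2*, a transporter of epithelia, had only 54.0 ± 18.6 normalized counts in Control and 28.4 ± 16.4 in LS1 (SD, 3 mice each). The genes that did not pass the filter on reads were *Slc34a1*, *Slc34a3*, *Kl* and *Cyp24a1*.

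All 13 genes of phosphocholine and sphingomyelin metabolism were tested, with a median log2 fold change of -0.065. *Sgms2*, a sphingomyelin synthase that makes the substrate of *Smpd3*, had 24229 ± 2976 normalized counts in Control and 32318 ± 7558 in LS1 (SD, 3 mice each), a log2 fold change of 0.40 (limma adjusted p 0.362). *Slc44a1*, a choline transporter, had a log2 fold change of 0.27 (limma adjusted p 0.386). In both genes every LS1 library was above every Control library. *Smpd4*, another sphingomyelinase, had a log2 fold change of -0.25, and *Asah1*, an acid ceramidase, one of 0.047.

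Of 14 genes of mineral-binding matrix proteins and gamma-carboxylation 13 were tested, with a median of 0.045. *Ahsg*, whose product fetuin-A is made in liver, did not pass the filter. *Sparc* with 6335 RPKM and *Spp1* with 3175 RPKM in Control had the highest levels of this list, and their log2 fold changes were -0.10 and 0.12. *Ibsp*, bone sialoprotein, had 161190 ± 39484 normalized counts in Control and 208350 ± 48336 in LS1 (SD, 3 mice each), with overlapping groups. *Bglap*, osteocalcin, had 52875 ± 6247 normalized counts in Control and 27154 ± 13110 in LS1 (SD, 3 mice each), and *Bglap2* differed by -1.18 on the log2 scale (SE 0.61). All LS1 libraries of *Bglap* were below Control, with 12317 normalized counts in LS1 replicate 3 against 31971 and 37175 in the other LS1 libraries. Its log2 fold change was -1.1, with a limma p of 0.0370 before adjustment, and adjusted p-values of 0.0543 from DESeq2 and 0.276 from edgeR. The limma adjusted p was 0.350 for *Bglap* and 0.483 for *Bglap2*. Reads of these near-identical genes can be split between them by the counting.

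The 4 annexins, calcium-binding proteins found in matrix vesicles, had a median log2 fold change of 0.25. *Anxa11* and *Anxa6* were higher in LS1 by 0.43 and 0.27 on the log2 scale (limma adjusted p 0.279 and 0.377), and in both all LS1 libraries were above Control. *Anxa5* had 174 RPKM in Control and 166 RPKM in LS1, and *Anxa2* had a log2 fold change of 0.24 with overlapping groups.

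**Figure D4:**
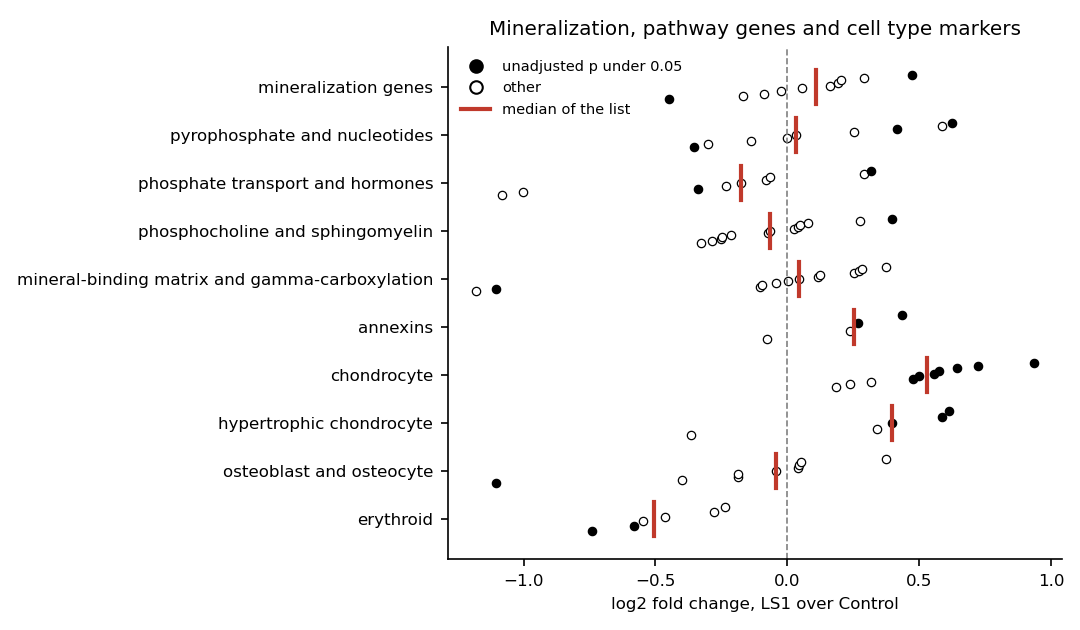
Log2 fold change of LS1 over Control (horizontal axis) of each tested gene of the 10 mineralization genes, the 5 related lists and 4 lists of cell type markers, with filled points at an unadjusted p under 0.05 from limma and red lines at the median of a list. The mineralization genes lie on both sides of 0 with a median of 0.11, while all 10 chondrocyte markers lie above 0 and all 6 erythroid markers below it.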

How the data were processed

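The authors mapped RNAseq reads of 3 Control and 3 LS1 libraries to GRCm38 (Ensembl release 84) using HISAT2 2.0.2, and featureCounts 1.4.6 gave counts per gene. Use of strand in counting is not given in the sources used here. The deposited signal is the read count over 1 size factor per library (median of ratios, recomputed here). Division gave back reads, with 100% of values whole within 0.01 of a read. In Control replicate 1 a read is worth 1.01, close to 1. The size factor recomputed from its recovered reads equalled that of the deposited values, 0.991096.

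Genes with a mean of at least 20 reads, 19308 in all, were compared in limma 3.58.1 (R 4.3.3) with trend, robust moderation and no covariate, on normalized values plus a pseudocount of 1 in log2, which is the scale of all fold changes. Adjusted p-values are Benjamini-Hochberg over these genes. DESeq2 1.42.0 and edgeR 4.0.16 on recovered reads, another normalization, filters, pseudocounts, a replicate block, a Y-linked covariate and each library left out were alternatives. The fit was also run on simulated counts, drawn independently for each gene and library, and nothing here rests on the outcome. Unlike these data, the simulation held no Y-linked split and no library that stood apart. Replicates of a group differed beyond read sampling (42.9 to 164 chi-square units per degree of freedom).

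Symbols, coordinates and exon lengths came from GENCODE M21 on GRCm38. The genes, lists and ratios were chosen with earlier results of these data known. The text names the 10 genes, the closest profile of each and, per related list, genes past the threshold, the 2 of highest level per length and up to 3 of smallest p. Markers and untested genes are named outside this rule.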

Additional observations from a re-analysis of the deposited data

How the results depend on the processing

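Under the 16 alternatives to the limma comparison, 0 of the 10 mineralization genes passed an adjusted p of 0.05 in each. The number of all genes called, 14 with limma, was 456 with DESeq2, 7 with edgeR, 3 without trend and robust moderation, 45 with every gene that had a read and 9 with a mean of at least 100 reads, and it ran from 5 to 324 when 1 library was left out, the latter without LS1 replicate 3. The cause was not tested. Of 200 recomputed values of genes and ratios, 192 kept their sign. This count includes alternatives that could not change a sign. A change of moderation, of filter or to the replicate block left the log2 fold changes as they were. The 8 reversed values all came with a library left out or with the Y-linked covariate. The log2 fold change of *Slc20a2* was -0.048 with Y-linked expression as a covariate and -0.078 without LS1 replicate 3. That of *Phospho1* was -0.021 without Control replicate 2 and -0.084 without LS1 replicate 3, in a range up to 0.55, and that of *Enpp1*, down to -0.10, was 0.047 without Control replicate 2 and 0.055 without LS1 replicate 2. The log2 ratio of *Phospho1* to *Alpl* ran from -0.19 to 0.20, being above 0 without Control replicate 1 (0.11) and without LS1 replicate 1. The letters A to C in the titles are shared by the groups, and with the letter as a replicate block 12 genes were called. Libraries of the same letter had correlations of their deviations of 0.054, 0.021 and 0.22, and those of different letters had -0.147 to 0.116. Not every library correlated best with its own letter. So few pairs cannot show whether a letter marks a shared factor, and the main comparison held no covariate. The block called 0 of the 10 genes, the smallest limma adjusted p being 0.153 for *Slc20a1*. The unadjusted limma p of *Phex* was 0.0285 with the block and 0.125 without it. That of *Phospho1* was 0.638 against 0.622, and those of the other genes were lower with the block. The 10 genes had mean reads of 2263 to 42900, so the spread between 3 mice rather than read depth limits these comparisons.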
